A study of Mus musculus with 4 samples.

Results

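Mossy cells of the dentate hilus were sought by marker genes in single-nucleus RNA libraries of mouse hippocampus, and 118 nuclei of 60288 deposited barcodes met the rule. A barcode was taken as a mossy nucleus when it held at least 500 detected genes, at least 3 of the 6 genes Calb2, Drd2, Ajap1, Glipr1, Csf2rb2 and Sv2c with 1 or more unique molecular identifiers (UMIs, each standing for 1 captured RNA molecule), Glipr1 or Csf2rb2 among those, at least 1 UMI of the vesicular glutamate transporter gene Slc17a7, and at most 1 UMI of Gad1 and Gad2 together. The wild-type library gave 23 such nuclei, the library labelled total MAGL knockout 40, the one labelled astrocyte-specific knockout 35 and the one labelled neuron-specific knockout 20, so no library fell under 20 nuclei. The 9 genes of the rule are therefore described and not tested.

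The study compared hippocampal nuclei of mice with and without monoacylglycerol lipase (MAGL, encoded by Mgll), the main hydrolase of the endocannabinoid 2-arachidonoylglycerol. Each of 4 genotypes was represented by 1 library: wild type, total knockout, and deletions labelled as specific to astrocytes or to neurons. Strain, age, sex, number of animals per library, the alleles and the driver of the cell-specific deletions are not stated in the labels, and no genotype has a replicate. Values given in a row of 4 follow the order wild type, total, astrocyte and neuron knockout.

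Mossy cells are glutamatergic neurons of the hilus, the zone between the blades of the dentate granule layer. They receive the mossy fibre output of granule cells, onto thorny excrescences like those of CA3 pyramidal cells, and send long axons to the inner molecular layer, where they contact granule cells and interneurons. They are known for strong type 1 cannabinoid receptor expression on their terminals, for ongoing synaptic drive, and for their loss in epilepsy models. Calretinin (Calb2) marks them mainly in the ventral hippocampus, and the dopamine D2 receptor gene Drd2 is a widely used marker of the cell type.

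The 4 libraries held 8945 to 31243 barcodes with a median of 5456 to 8904 UMIs and 2432 to 3291 detected genes, and the total knockout was the largest and shallowest. Pairs of libraries shared 108 to 466 barcode sequences, at most 4.63% of either library. Scrublet, a caller of barcodes that hold more than 1 nucleus, marked 3.77%, 23.6%, 6.07% and 1.86% of barcodes. Mgll itself was lowest in the total knockout but still present there, and was not below the wild type in the cell-specific knockouts. In granule nuclei it stood at 119, 96.0, 137 and 135 CPM (the UMIs of a gene scaled to a common total of all UMIs in the class), and in CA3 nuclei at 122, 94.6, 145 and 126 CPM. Where the counted reads lie relative to the deleted part of the gene was not given in the sources used here, so Mgll levels do not check the genotypes.

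Mossy nuclei made up 0.247% of the wild-type nuclei with at least 500 genes (exact Clopper-Pearson 95% interval 0.157 to 0.371%), 0.129% of the total knockout (0.0924 to 0.176%), 0.328% of the astrocyte knockout (0.229 to 0.456%) and 0.226% of the neuron knockout (0.138 to 0.349%). The intervals cover counting error only. Of glutamatergic nuclei, defined by Slc17a7 and the same limit on Gad genes, they were 0.395%, 0.269%, 0.501% and 0.366%. The share was lowest in the shallowest library. When every barcode was reduced at random to 8000 UMIs, with shallower barcodes left out, 7 of 5432, 19 of 8053, 19 of 4757 and 7 of 4865 nuclei met the rule, or 0.129%, 0.236%, 0.399% and 0.144%, and the total knockout was then not the lowest. Of the same deeper barcodes 20, 35, 33 and 20 met the rule before the reduction. The share of the total knockout was already not the lowest among them. The step left out 3937, 23190, 5974 and 4080 barcodes, so the libraries kept unlike parts. The effect of depth alone was not tested.

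Mossy nuclei were deep, which a rule that asks for 3 detected markers favours. With every barcode reduced to 3000 UMIs, 0, 4, 2 and 0 barcodes met the rule. Medians of the mossy nuclei were 15753, 10978.5, 14115 and 16933.5 UMIs against 8555, 5671.5, 6393 and 7772 in granule nuclei and 16525, 10768, 12663 and 14662 in CA3 nuclei. Their sums came to 362549, 503287, 493946 and 333583 UMIs. Scrublet marked 1, 16, 3 and 0 of them, so 40.0% of the mossy nuclei of the total knockout carried that mark. Of the 118 nuclei, 9 held the 1 permitted Gad1 or Gad2 UMI and none had over 5% of UMIs from mitochondrial genes.

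The markers were uneven among the members. Exactly 3 of the 6 markers were found in 78 nuclei, 4 in 30, 5 in 10 and all 6 in none, and another 297 barcodes stood just outside with 2 markers, Glipr1 or Csf2rb2 among them. Ajap1, a membrane protein of adherens junctions, was detected in 109 nuclei, the cytokine receptor subunit gene Csf2rb2 in 93, Calb2 in 65, Glipr1 in 63, Drd2 in 53 and the synaptic vesicle protein gene Sv2c in 21. Csf2rb2 stood at 105, 127, 156 and 225 CPM in the summed mossy nuclei, was at 0 in the granule sums and at 2.51 to 4.14 CPM in CA3. Calb2 stood at 77.2, 49.7, 79.0 and 57.0 CPM, with at most 1.34 CPM in granule and 4.80 in CA3 nuclei. Drd2 was at 22.1, 55.6, 46.6 and 60.0 CPM and was lowest in the wild type, where 4 of 23 nuclei held it against 21 of 40, 16 of 35 and 12 of 20. Calb2 without Drd2 was found in 40 nuclei, Drd2 without Calb2 in 28, both in 25 and neither in 25. These are the values that chose the nuclei.

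Of the marker genes, Sv2c went against the label. Its level was 35.9, 29.8, 8.10 and 5.996 CPM in mossy sums but 74.7 to 95.1 CPM in granule nuclei, where Calb2, Drd2, Glipr1 and Csf2rb2 were low and Ajap1 stood at 33.6 to 46.9 CPM. The 21 nuclei with an Sv2c UMI (7, 8, 4 and 2 by library) included 2 with Csf2rb2, 2 with Calb2 and 0 with Drd2, and a count of 0 of 21 allows a share of nuclei with a Drd2 UMI of up to 14.3%. These genes are in the rule, which asks for fewer of them once Sv2c is present, so their lower shares are a description. Prox1, the transcription factor of granule cells, was found in 10 of the 21 and in 2 of the 97 nuclei without Sv2c, at 135.5 against 2.15 CPM over the libraries together. Calb1, which marks mature granule cells, was in 9 of 21 and 6 of 97. Scrublet marked 8 of the 21, out of 20 marked mossy nuclei in all. The 97 nuclei without Sv2c held Csf2rb2 in 91, the CA3-type genes Rnf182 in 95 and Cpne4 in 96, and Cnr1 in 80. Nuclei with Sv2c were 7 of the 23 wild-type mossy nuclei and 2 of the 20 of the neuron knockout, and the comparisons were also computed from the 97 nuclei (16, 32, 31 and 18). Values from the 97 nuclei are given for the counts and beside each gene whose call changed or whose difference moved by over 1.5 times. This split was made after its values were seen.

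**Figure D1:**
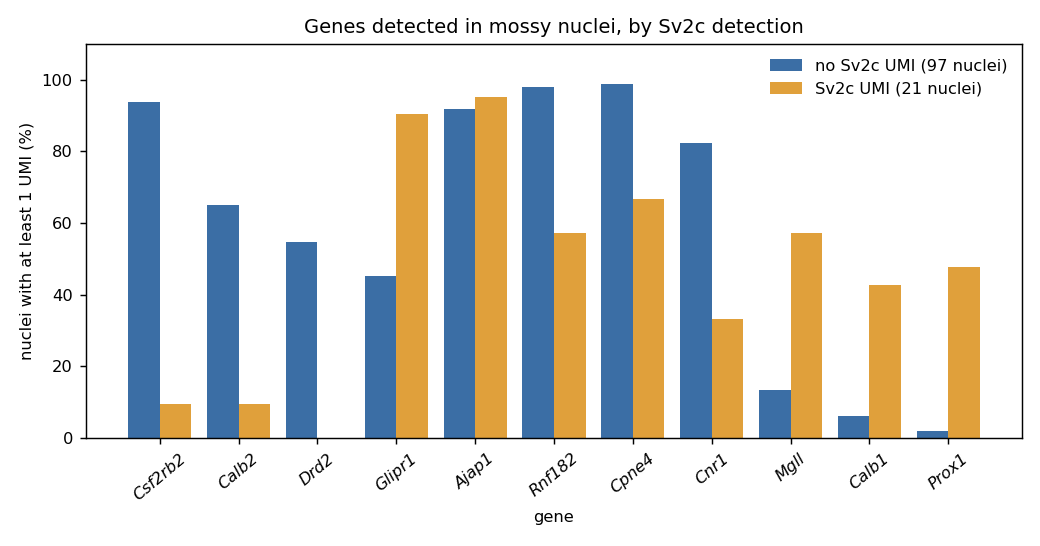
Percent of mossy nuclei with at least 1 UMI of each gene (y axis), for the 97 nuclei without an Sv2c UMI (blue bars) and the 21 nuclei with one (orange bars), all libraries together. Prox1, which the rule did not use, was in 2.06% of the former and 47.6% of the latter, while the shares of the rule's genes Csf2rb2, Calb2, Drd2, Glipr1 and Ajap1 were set in part by the rule.

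Expression was compared with the neighbouring glutamatergic neurons of the same libraries, which were also chosen by marker rules. These were 6750 dentate granule nuclei (3 of 6 genes with Prox1 or Dsp) and 3877 CA3 nuclei (3 of 5 genes with Iyd or Rnf182). Nuclei that met the mossy rule or the rule of the other class were left out of both classes. Mossy nuclei that met either of those rules were kept. For each class the UMIs of a library were added up and tested with edgeR's quasi-likelihood test with the library as a block, 4 sums against 4. The genes of the mossy rule and of the rule for the class compared were left out before the p-values were adjusted by Benjamini-Hochberg over all other genes, and a gene was called at an adjusted p under 0.05. The SD beside a fold change is that of the 4 within-library log2 differences. Against granule nuclei 13019 genes were tested, of which 1610 were higher in mossy nuclei (12.4%) and 1869 lower (14.4%). Against CA3 nuclei 13359 were tested, with 766 higher (5.73%) and 770 lower (5.76%). With the 97 nuclei the counts were 1725 and 2003 of 13163 genes against granule and 782 and 999 of 13208 against CA3. Of the libraries left out in turn, the astrocyte knockout gave the lowest counts, at 1292 and 1203 against granule and 507 and 493 against CA3.

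The mossy nuclei resembled CA3 on some of that class's own markers. The CA3 rule was met by 88 of the 118 nuclei, and the granule rule by 12. The ubiquitin ligase gene Rnf182 and the copine gene Cpne4 were higher than in granule nuclei, by 2.27 and 1.53 on the log2 scale (adjusted p = 4.3e-12 and 3.6e-10). So was the adhesion gene Nectin3, by 4.25 (adjusted p = 1.3e-13). These were 3 of the 5 CA3 rule genes, beside 12.4% of all genes, and the other 2 did not pass. Granule nuclei that met the CA3 rule had been left out and such mossy nuclei kept, which favours these differences. Of the 7 further granule markers tested, all 7 were lower than in granule nuclei, beside 14.4% of all genes. Among them was the synaptic organiser C1ql2, at 2.76, 13.9, 8.10 and 0 CPM against 65.5 to 102 (log2 difference -3.63, adjusted p = 3.6e-08, and -5.92 in the 97 nuclei, from 2 UMIs). Its relative C1ql3 was lower than in granule nuclei too (-1.28) but higher than in CA3 by 2.35 (adjusted p = 7e-13), with values of 129.6, 121, 105 and 80.9 CPM against 14.0 to 32.3. C1ql3 kept that difference without the Sv2c nuclei (2.33). The granule rule genes did not: 3 of 5 tested were higher in mossy than in CA3 nuclei, beside 5.73% of all genes higher and 5.76% lower. With the 97 nuclei none was higher and 2 of 4 were lower, where 782 and 999 of 13208 genes were. CA3 nuclei that met the granule rule had been left out and such mossy nuclei kept, which favours higher values of these genes in mossy nuclei. The granule rule gene Glis3 went from 1.84 (adjusted p = 1e-05) to -1.52 (adjusted p = 0.062) in the 97 nuclei.

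Other genes known from mossy cells were looked at as a list of 9. Of the 8 tested against granule nuclei 4 were higher and none lower, and of the 9 tested against CA3 4 were higher and 2 lower. Of all genes 12.4% were higher and 14.4% lower against granule, and 5.73% and 5.76% against CA3. The neuropeptide gene Nmb stood at 24.8, 27.8, 42.5 and 27.0 CPM, against 2.79 to 3.49 in granule and 4.23 to 7.39 in CA3 nuclei, and each mossy value was above every value of the other classes. Its log2 difference was 3.22 ± 0.44 (SD, n = 4) from granule and 2.41 ± 0.30 from CA3 (adjusted p = 4.4e-07 and 2e-07). Tm4sf1, a membrane protein of the tetraspan group, stood at 38.6, 27.8, 38.5 and 11.99 CPM and at most 0.542 and 1.31 CPM in the other classes (6.65 ± 1.45 and 5.01 ± 1.22). At an unadjusted p under 0.05 edgeR gave 5 higher and 0 lower against granule nuclei, and DESeq2 called 4 and 0. The galanin gene Gal and the cytidine deaminase gene Cda were higher as well. Calcrl, the calcitonin receptor-like receptor gene often used for mossy cells, was not: it stood at 5.52, 1.99, 10.1 and 11.99 CPM, did not pass against granule nuclei (-0.31, adjusted p = 0.71) and was lower than in CA3 (-1.48, adjusted p = 0.0065), a call that held in 8 of 11 alternatives. Ociad2 was likewise lower than in CA3 (-1.70, adjusted p = 1.6e-08). The counts for this list were the same with the 97 nuclei. With at least 4 markers required 3 of 7 were higher and 1 lower against granule nuclei, where 982 and 1555 of 12695 genes were. The median log2 difference fell from 1.71 to 0.34. Against CA3 4 of 9 were higher and 2 lower in that setting, where 463 and 856 of 12843 genes were.

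Among genes higher than in both neighbours, 351 passed in both contrasts with a mean of at least 30 CPM and the same direction in every library, and the 15 with the largest smaller fold included Prrx1, Tmem132c, Emid1, Pde5a, Adamts18, Bmpr1b, Glra3, Rgs12, Gask1b, Epb41l2, Adcyap1, Klhl1, Piezo2 and Col12a1. Prrx1, a homeobox factor best known from limb and craniofacial mesenchyme (chromosome 1, 163245119 to 163313710 in GENCODE M21 on GRCm38), stood at 80.0, 63.6, 83.0 and 138 CPM, against 0.289 to 1.80 in granule and 1.51 to 3.90 in CA3 nuclei. The groups were far apart, and the log2 differences were 6.77 ± 1.31 and 5.02 ± 0.99 (adjusted p = 1.1e-10 and 1.7e-15). The transmembrane gene Tmem132c stood at 141, 79.5, 204 and 168 CPM, against at most 1.54 and 11.0 CPM (7.36 ± 1.34 and 4.23 ± 0.91).

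The type 1B bone morphogenetic protein receptor gene Bmpr1b stood at 129.6, 125, 136 and 231 CPM and the alpha 3 glycine receptor subunit gene Glra3 at 157, 141, 132 and 186 CPM. Neither overlapped the other classes, whose highest values were 16.7 CPM for Bmpr1b and 18.8 CPM for Glra3, both in CA3. Adcyap1, which encodes the neuropeptide PACAP, was at 24.8, 19.9, 32.4 and 51.0 CPM against at most 1.28 in granule and 4.43 in CA3 nuclei. Without the Sv2c nuclei all 15 kept their direction and their call in both contrasts, and the mean log2 differences from CA3 ranged from 3.21 to 5.27.

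Piezo2, a mechanically gated channel gene, was the most uneven of the 15. It stood at 110.3, 13.9, 68.8 and 30.0 CPM, and its SD against granule nuclei was 2.14. Its lowest value, in the total knockout, was still above every granule and CA3 value.

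In the other direction 333 genes passed the same conditions, and the 10 with the largest smaller fold included Mas1, St18, Fstl4, Pcsk5, Lamb1, Adamts20, Mgll, Usp3 and Dleu2. The zinc finger gene St18, which is also in the oligodendrocyte marker list used here, stood at 5.52, 53.6, 32.4 and 0 CPM against 272 to 329 in granule and 122 to 147 in CA3 nuclei. The proprotein convertase gene Pcsk5 stood at 38.6, 29.8, 24.3 and 3.00 CPM against 255 to 276 and 108 to 130. For all 10 the groups did not overlap, as for 31.6% and 17.6% of all genes tested against granule and CA3, and their selection by direction and fold favours this. Some of these levels came from the Sv2c nuclei. The follistatin-like gene Fstl4 went from 71.7, 69.5, 60.7 and 8.99 CPM to 7.78, 30.0, 2.30 and 0 without them. In the 97 nuclei the differences from granule and CA3 were also wider for Mas1 (-4.12 and -4.22), Pcsk5 (-4.21 and -3.13), Lamb1 (-3.59 and -4.21), Adamts20 (-5.03 and -3.92) and Dleu2 (-3.37 and -3.06). Mas1, Lamb1 and Adamts20 had 3, 4 and 3 UMIs there. Only Mas1, the angiotensin-(1-7) receptor gene, lost a call among the alternatives, against CA3 under DESeq2 (adjusted p = 0.053).

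**Figure D2:**
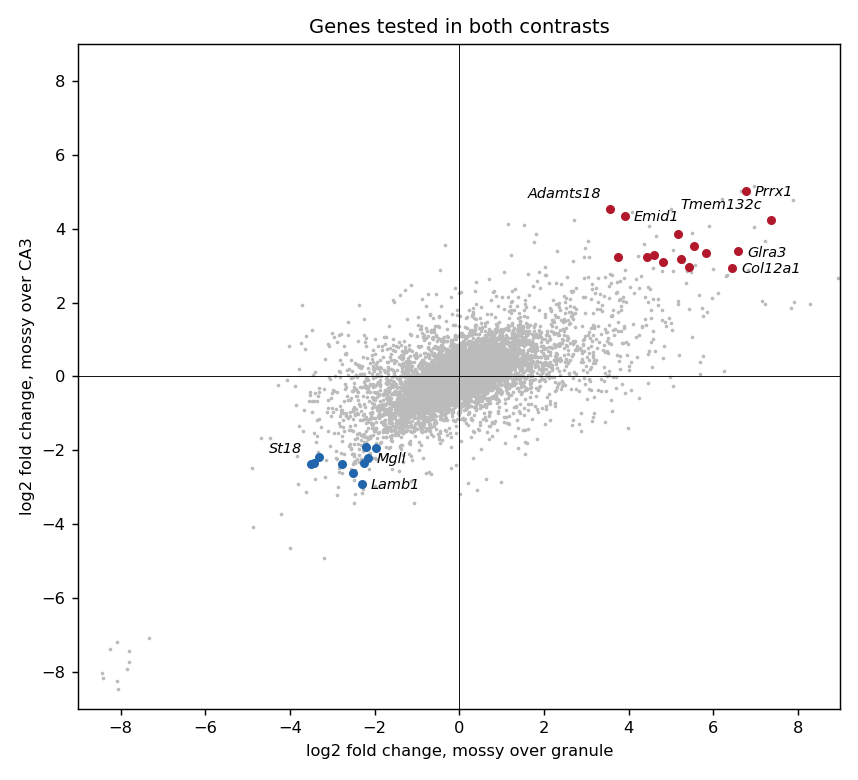
Log2 fold change of mossy over granule nuclei (x axis) and over CA3 nuclei (y axis) for the 12670 genes tested in both contrasts (grey), with the 15 higher named genes in red and the 10 lower ones in blue. Prrx1 is at 6.77 and 5.02 and Mgll at -2.16 and -2.20, and since the mossy sums enter both axes the slope of the grey points is not a result.

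Mgll, the gene the study deleted, was low in mossy nuclei of every library. It stood at 24.8, 29.8, 30.4 and 21.0 CPM (9, 15, 15 and 7 UMIs), against 96.0 to 137 CPM in granule and 94.6 to 145 CPM in CA3 nuclei. No mossy value reached the other classes, and the log2 difference was -2.16 ± 0.37 from granule and -2.20 ± 0.35 from CA3 (SD, n = 4; adjusted p = 8.3e-09 and 6e-12). Mgll was detected in 12 of the 21 nuclei with Sv2c and in 13 of the 97 without it, and in the latter the level was 7.78, 25.02, 6.91 and 0 CPM, from 2, 10, 3 and 0 UMIs. The difference was then -3.50 and -3.55 (adjusted p = 4.3e-10 and 3.4e-13). Of the 11 alternatives, 11 kept the call in each contrast. Between genotypes no difference was detectable at this depth: the log2 ratio to the wild type was 0.20 in the total knockout (95% interval -1.02 to 1.64), 0.23 in the astrocyte knockout (-0.996 to 1.66) and -0.20 in the neuron knockout (-1.90 to 1.35), from 7 to 15 UMIs a library.

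The cannabinoid receptor gene Cnr1 was high. It stood at 143, 149, 196 and 119.9 CPM, against 7.92 to 21.5 in granule and 79.6 to 83.9 in CA3 nuclei, again without overlap. The log2 difference was 3.59 ± 0.59 from granule and 0.87 ± 0.30 from CA3 (adjusted p = 2.6e-11 and 2e-06), and 3.79 and 1.06 in the 97 nuclei. Of the 15 endocannabinoid genes tested, 2 were higher and 5 lower than in granule nuclei (median log2 difference -0.22, against -0.08 over all genes), and 1 was higher and 4 lower than in CA3 (median -0.19, against -0.03). Of all genes 12.4% were higher and 14.4% lower against granule, and 5.73% and 5.76% against CA3, so 2 of 15 higher is near the share of all genes.

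The synthesis enzyme of 2-arachidonoylglycerol Dagla stood at 85.5, 97.4, 70.9 and 80.9 CPM, below the granule range of 119 to 152 (-0.69, adjusted p = 0.00067), and did not pass against CA3 (-0.35, adjusted p = 0.10), although in the 97 nuclei it did (-0.43, adjusted p = 0.049). Abhd6, a second hydrolase of that lipid, was at 80.0, 77.5, 56.7 and 80.9 CPM, under both the granule range of 110.3 to 120.4 and the CA3 range of 108 to 114 (-0.68 and -0.65, adjusted p = 0.00086 and 0.00078). The third hydrolase gene Abhd12 and the anandamide hydrolase gene Faah did not pass in either contrast, with Faah at 119, 99.3, 154 and 141 CPM against granule values of 129.9 to 144. Napepld, which makes anandamide, was lower than in granule nuclei (-1.19, adjusted p = 0.00011) and uneven, at 69.0, 21.9, 44.5 and 18.0 CPM. Plcb1, a phospholipase that feeds the pathway, differed from CA3 by only -0.24 (adjusted p = 0.032) and kept that call in 6 of 11 alternatives.

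**Figure D3:**
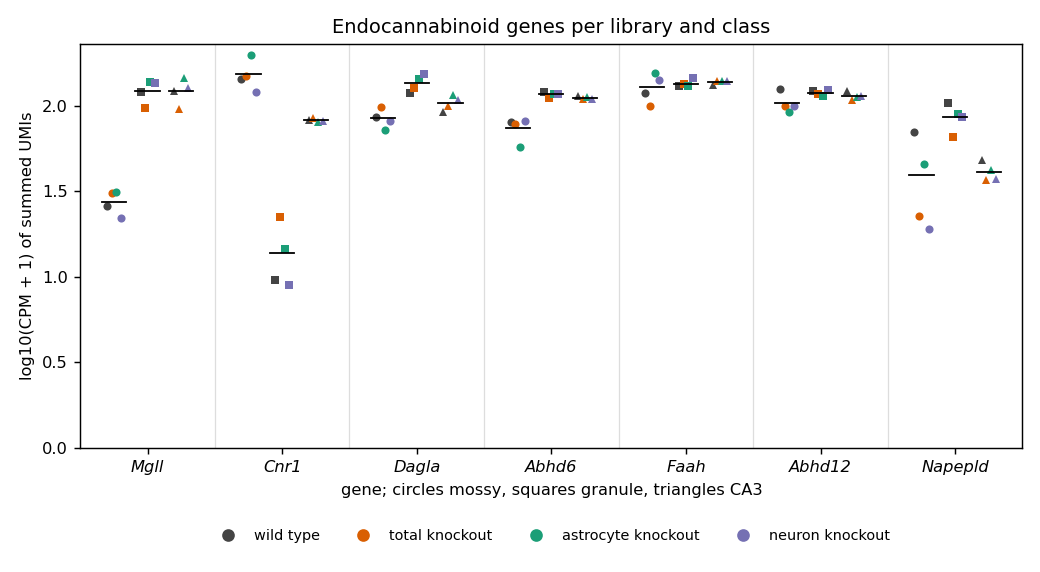
Level of 7 endocannabinoid genes as log10 of CPM + 1 of the summed UMIs (y axis) in mossy (circles), granule (squares) and CA3 nuclei (triangles); each point is 1 library and each bar the mean of 4. The 4 mossy points of Mgll lie at 21.0 to 30.4 CPM, below all points of the other classes, and those of Cnr1 lie above them.

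Of the glutamate receptor genes, Gria4, Neto2 and Grm8 stood above both neighbours. Over all genes 12.4% were higher and 14.4% lower than in granule nuclei, and 5.73% and 5.76% than in CA3. Of 11 AMPA receptor genes and auxiliary subunits tested against granule nuclei 3 were higher and 2 lower, and of 12 against CA3 4 were higher and none lower. The Gria4 subunit stood at 924, 749, 725 and 932 CPM against 186 to 328 in granule and 317 to 458 in CA3 nuclei, with no overlap (1.85 ± 0.50 and 1.07 ± 0.28, adjusted p = 2.2e-09 and 4.6e-11). Against CA3, 1 gene was lower at an unadjusted p under 0.05, DESeq2 called 0 lower, and in the 97 nuclei 2 were lower. The subunit genes Gria2 and Gria3 did not pass in either contrast. The auxiliary subunit genes Cacng2 (1.37 and 0.66) and Shisa6 (1.27 and 0.36) were higher in both, and Cacng3 was higher than in CA3 (1.22, adjusted p = 5.5e-09).

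Among 9 kainate and delta receptor genes 4 were higher and 3 lower than in granule nuclei and 3 higher and 4 lower than in CA3, beside the same shares of all genes (12.4% and 14.4%, 5.73% and 5.76%). The kainate auxiliary gene Neto2 stood at 234, 258, 211 and 222 CPM, against 13.9 to 29.7 in granule and 129 to 159 in CA3 nuclei (3.48 ± 0.42 and 0.69 ± 0.26). Neto1 went the other way from CA3, at 419, 413, 249 and 249 CPM against 850.1 to 969.9 (-1.49 ± 0.39, adjusted p = 3.4e-13), and did not pass against granule. Grik4, the subunit typical of mossy fibre synapses on CA3, lay between the classes at 397, 431, 468 and 456 CPM, above all granule values (0.57) and below all CA3 values (-0.98).

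The presynaptic metabotropic receptor gene Grm8 was higher than in both classes. It stood at 422, 767, 877 and 1121 CPM, against 60.7 to 143 in granule and 83.3 to 191 in CA3 nuclei, with no overlap and log2 differences of 3.04 ± 0.64 and 2.68 ± 0.94 (adjusted p = 2.7e-11 and 2.1e-14). It was the single higher gene of the 7 metabotropic receptors against CA3, where 5.73% of all genes were higher and 5.76% lower. There, edgeR and DESeq2 called 0 lower and 1 was lower at an unadjusted p under 0.05. Against granule nuclei 4 of the 7 were higher and 3 lower, beside 12.4% and 14.4% of all genes. The NMDA subunit gene Grin2a was lower than in granule nuclei (-0.66, adjusted p = 1.5e-05), and its -0.26 from CA3 (adjusted p = 0.017) held in 6 of 11 alternatives.

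GABA receptor genes leaned low against granule nuclei: of 14 tested 0 were higher and 7 lower by the edgeR test, while 14.4% of all genes were lower. DESeq2 also called 0 higher and 7 lower, and at an unadjusted p under 0.05 edgeR gave 1 higher and 8 lower. The 7 included the extrasynaptic delta subunit Gabrd, at 16.5, 13.9, 6.07 and 8.99 CPM against 46.4 to 60.5 (-2.26, adjusted p = 1.6e-06, and -4.23 in the 97 nuclei, from 4 UMIs). Against CA3 2 were higher, Gabrb2 among them (0.57), and 4 were lower, beside 5.73% and 5.76% of all genes, among them Gabra5 at 143, 133, 99.2 and 126 CPM against 237 to 273 (-1.06, adjusted p = 9.3e-09) and the GABA-B subunit Gabbr2 (-0.58, adjusted p = 1.7e-05).

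Among receptors for neuromodulators 8 of 33 tested were higher and 8 lower than in granule nuclei, where 12.4% and 14.4% of all genes were, and 5 of 34 were higher and 4 lower than in CA3, where 5.73% and 5.76% were. With the 97 nuclei the counts were 9 and 8 of 32 and 4 and 5 of 33. The alpha 7 nicotinic acetylcholine receptor gene Chrna7 stood at 439, 324, 508 and 321 CPM against 123 to 153 in granule and 139 to 157 in CA3 nuclei (1.51 ± 0.39 and 1.35 ± 0.40, adjusted p = 1.1e-08 and 1.7e-11). Every mossy value was at least 321 CPM, above all values of the neighbours. The muscarinic receptor gene Chrm3 separated mossy from granule nuclei only, at 1145, 1121, 1292 and 1277 CPM against 58.8 to 199.9 in granule (3.49 ± 0.77) and 1067 to 1262 in CA3 (0.00 ± 0.05, adjusted p = 0.99). The serotonin receptor gene Htr4 was lower than in both (-1.78 and -0.89, adjusted p = 2.1e-08 and 1.2e-05). Htr2c was at 0 in the wild-type mossy nuclei and at 121, 34.4 and 15.0 CPM in the others, against 118 to 151 in CA3 (-1.61, adjusted p = 2.9e-05).

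Neuropeptide and growth factor genes gave 9 higher and 5 lower of 19 against granule nuclei (median 0.69) and 8 higher and 2 lower of 19 against CA3 (median 0.42). Over all genes the medians were -0.08 and -0.03, with 12.4% higher and 14.4% lower, and 5.73% and 5.76%. The interneuron peptide gene Sst and Fgf1 were among the higher genes in both contrasts, and Sst kept its call against CA3 in 3 of 11 alternatives. Besides Nmb, Gal and Adcyap1, the cholecystokinin gene Cck was higher in both, at 483, 324, 431 and 378 CPM against 101 to 176 and 228 to 344. Its 4 differences from CA3 were alike (0.43 ± 0.05, adjusted p = 0.0006), although the ranges overlapped. The opioid peptide genes of granule cells were at or near 0: Penk at 2.76, 3.97, 0 and 0 CPM, and Pdyn at 0 except for 4.05 CPM in the astrocyte knockout. Both were lower than in granule nuclei (-2.71 and -2.85). In the 97 nuclei Penk had 1 UMI and Pdyn 0, so their differences there (-4.03 and -8.82) give a direction and not a size. The activity-linked pentraxin gene Nptx1 was lower than in both classes (-1.70 and -1.38, adjusted p = 5.9e-06 and 1.9e-05).

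Of 16 calcium-binding protein genes 5 were higher and 4 lower than in granule nuclei and 4 were higher and 2 lower than in CA3, beside 12.4% and 14.4%, and 5.73% and 5.76%, of all genes. The neuronal EF-hand gene Necab1 stood at 295, 278, 279 and 375 CPM, against 31.9 to 49.6 in granule and 28.9 to 64.6 in CA3 nuclei (2.94 ± 0.36 and 2.67 ± 0.50, adjusted p = 1.2e-12 and 2.5e-17). Calb1 was lower than in granule nuclei (-2.90, adjusted p = 1.8e-08). Its level was 30.3, 21.9, 28.3 and 0 CPM, and in the 97 nuclei the difference was -4.06.

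Potassium and HCN channel genes were more often lower than higher: 24 lower and 9 higher of 50 against granule nuclei (median -0.56) and 16 lower and 7 higher against CA3 (median -0.29). Of all genes 14.4% were lower and 12.4% higher against granule and 5.76% and 5.73% against CA3. With the 97 nuclei 27 were lower and 9 higher of 48, and 22 lower and 6 higher of 50. The A-type channel gene Kcnd2 stood at 2022, 2287, 2308 and 1883 CPM, under the granule range of 4695 to 4863 and the CA3 range of 2721 to 2776 (-1.19 ± 0.16 and -0.43 ± 0.13). The delayed rectifier gene Kcnc2 and the M-current gene Kcnq5 set mossy nuclei apart from granule nuclei while staying under CA3. Kcnq5 was at 2645, 2426, 2083 and 2578 CPM, against 121 to 429 in granule (3.61 ± 0.92) and 4263 to 4684 in CA3 nuclei (-0.93 ± 0.20). Kcnh5, an ether-a-go-go channel gene, was higher than in both (2.16 and 1.76, adjusted p = 5.4e-11 and 1.9e-14).

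Of 28 calcium, sodium and TRP channel genes 9 were higher and 8 lower than in granule nuclei and 7 were higher and 7 lower than in CA3, beside 12.4% and 14.4%, and 5.73% and 5.76%, of all genes. The cation channel gene Trpc7 stood at 204, 109, 253 and 162 CPM against 1.35 to 3.24 and 20.4 to 29.1 (6.33 ± 1.00 and 2.75 ± 0.68, adjusted p = 1e-12 and 7.2e-15). The low-threshold T-type channel gene Cacna1i was higher than in both (2.39 and 0.85), and the R-type gene Cacna1e was lower than in both (-1.80 and -1.23).

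Adhesion and synapse organiser genes were called often in both directions, with 28 higher and 23 lower of 68 against granule nuclei and 21 higher and 17 lower of 70 against CA3. Over all genes 26.7% and 11.5% were called in either direction. With the 97 nuclei the counts were 27 and 26, and 23 and 20. The contactin gene Cntn6 stood at 320.0, 300.0, 309.8 and 329.8 CPM against 12.4 to 46.3 and 40.4 to 81.5 (3.53 ± 0.88 and 2.44 ± 0.45, adjusted p = 6.8e-11 and 5e-17), with 4 mossy values close to each other. Its relative Cntn4 stood at 1854, 1500, 2031 and 2506 CPM, at least 1500 in every library, against at most 488 elsewhere. Cntnap2, an autism-linked neurexin relative, lay between the classes (1.30 from granule, -1.62 from CA3). Lrrtm4, which organises granule cell synapses, was lower than in granule nuclei (-3.03, adjusted p = 1.8e-08), at 1509, 1433, 1680 and 264 CPM. In the 97 nuclei it stood at 268, 798, 555 and 163 CPM, with differences of -4.43 from granule and -2.00 from CA3 in place of -0.59.

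Of 63 transcription factor genes 14 were higher and 27 lower than in granule nuclei, and 10 were higher and 15 lower than in CA3, against 12.4% and 14.4%, and 5.73% and 5.76%, of all genes. With the 97 nuclei these were 14 and 31, and 10 and 21, and against CA3 DESeq2 called 5 higher and 12 lower. The chromatin organiser gene Satb1 stood at 359, 376, 425 and 501 CPM against 55.9 to 75.8 and 71.0 to 87.3 (2.69 ± 0.29 and 2.32 ± 0.27, adjusted p = 1e-12 and 5.1e-18). The nuclear receptor gene Nr2f2 was higher as well (2.46 and 1.29). Lower than in both were Bcl11a, at 143, 117, 91.1 and 80.9 CPM against 231 to 268 and 424 to 470.4 (-1.18 ± 0.36 and -2.10 ± 0.42), the mineralocorticoid receptor gene Nr3c2 (-0.97 and -0.92) and the hippocampal zinc finger gene Zbtb20 (-0.52 and -0.41, adjusted p = 0.00032 and 7.6e-05). In the 97 nuclei Bcl11a was further down, at -2.41 and -3.34.

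**Figure D4:**
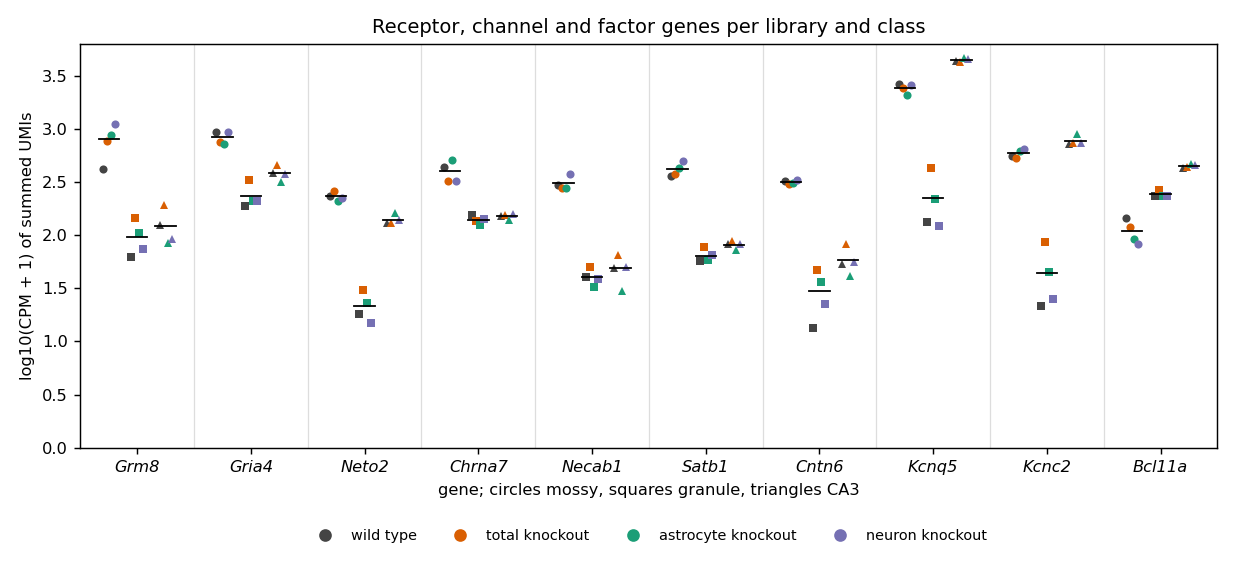
Level of 10 genes as log10 of CPM + 1 of the summed UMIs (y axis) in mossy (circles), granule (squares) and CA3 nuclei (triangles); each point is 1 library and each bar the mean of 4. Grm8, Gria4, Neto2, Chrna7, Necab1, Satb1 and Cntn6 show 4 mossy points above all others, Kcnq5 and Kcnc2 lie between the 2 classes, and Bcl11a lies below both.

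Activity-regulated genes were higher than in granule nuclei in 7 of 15 tested and lower in 1, beside 12.4% and 14.4% of all genes. Their median log2 difference was 1.21, against -0.08 over all genes. In the 97 nuclei 6 of 14 were higher and 1 lower (median 0.88), where 1725 and 2003 of 13163 genes were. With at least 4 markers required 3 of 13 were higher and 2 lower (median 0.16), where 982 and 1555 of 12695 genes were. Against CA3 1 of 16 was higher, near the share of 5.73% of all genes, and none was lower, beside 5.76%. There, edgeR gave 2 higher and 3 lower at an unadjusted p under 0.05, and DESeq2 called 0 of 16 in either direction. The orphan nuclear receptor gene Nr4a3 stood at 57.9, 183, 115 and 234 CPM, against 6.43 to 20.4 in granule and 70.3 to 104 in CA3 nuclei (3.52 ± 0.45 and 0.63 ± 0.71). The wild-type mossy value lay under the CA3 range and the other 3 above it, and the call against CA3 (adjusted p = 0.0025) held in 6 of 11 alternatives. The scaffold gene Homer1 was at 345, 433, 456 and 707 CPM against 151 to 190.1 in granule (1.48, adjusted p = 1.5e-07) and did not pass against CA3 (0.24, adjusted p = 0.23). Arc and Npas4 were higher than in granule nuclei (2.07 and 2.24) and did not pass against CA3 (0.36 and 0.45).

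For the remaining lists the 97 nuclei gave, as higher and lower genes against granule and then CA3, 2 and 5 of 15, and 1 and 5 of 15 for the endocannabinoid genes. The AMPA receptor genes gave 4 and 2 of 11, and 5 and 2 of 12, and the kainate and delta receptor genes 4 and 4 of 9, and 3 and 5 of 9. The metabotropic receptors gave 4 and 3 of 7, and 2 and 1 of 7, and the GABA receptors 0 and 8 of 14, and 2 and 5 of 14. The neuropeptide genes gave 9 and 6 of 19, and 8 and 3 of 18, and the calcium-binding genes 4 and 5 of 16, and 3 and 5 of 16. The calcium, sodium and TRP channels gave 8 and 8 of 28, and 7 and 11 of 28. Over all genes 1725 and 2003 of 13163, and 782 and 999 of 13208, were called. Lower calls against CA3 thus rose over all genes too, from 770. With at least 4 markers required, fewer genes were higher than in CA3 among the transcription factors (5 of 63), the potassium and HCN channels (2 of 49), the neuropeptides (4 of 18) and the neuromodulator receptors (2 of 31). Over all genes the higher calls fell as well, from 766 of 13359 to 463 of 12843. Some single calls also lapsed under alternatives. Against CA3, Lrrtm4 kept its call in 7 of 11, Fgf1 in 9, and Cacng2, Shisa6, Htr2c, Cck, Cda and Kcnc2 in 10. Against granule nuclei Penk kept it in 9, and Pdyn, Arc and Npas4 in 10.

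Markers of other cells varied in the mossy sums. The 7 oligodendrocyte markers summed to 55.2, 205, 66.8 and 57.0 CPM, against 475 to 757 in granule and 160 to 255 in CA3 nuclei. The 7 astrocyte markers summed to 164 to 288 CPM, against 198 to 229 and 342 to 352, above the granule range in 3 of 4 libraries and with Gfap and Slc7a10 at 0. The 10 inhibitory markers summed to 171, 342, 186 and 36.0 CPM, against 1496 to 2030 in granule and 38.4 to 153 in CA3 nuclei, above the CA3 range in 3 of 4 libraries and with the GABA transporter gene Slc32a1 and Vip at 0. The 7 medium spiny markers summed to 1200 to 1494 CPM, against 775 to 937 in granule and 1228 to 1290.5 in CA3 nuclei. Among them Pde10a was higher in both contrasts, at 805 to 1178 CPM, Foxp1 was lower in both, Rgs9 was lower than in granule nuclei, and Ppp1r1b and Adora2a were at 0. The 6 CA1 markers summed to 369 to 513 CPM, against 73.0 to 224 and 424 to 515. The oligodendrocyte and inhibitory sums were highest in the total knockout, where the share of Scrublet marks was highest as well, and their part in the differences was not tested.

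With 1 library per genotype the mossy nuclei of each knockout were set beside those of the wild type without a test, as log2 ratios of CPM with a pseudocount of 1 count and an exact binomial 95% interval that covers counting error only. Among 5088 genes whose mossy UMIs came to 50 or more in total, 97 were over 2-fold higher (1.91%) and 109 lower (2.14%) in the total knockout, 88 higher (1.73%) and 129 lower (2.54%) in the astrocyte knockout, and 144 higher (2.83%) and 259 lower (5.09%) in the neuron knockout. In either direction these were 4.05%, 4.26% and 7.92% of the genes. In the 97 nuclei without Sv2c, with 4371 genes, these counts became 147 and 99, 96 and 94, and 143 and 159. Normalisation by trimmed means in place of totals raised the share of higher genes among those past 2-fold in each knockout. It went from 47.1% to 55.7% in the total, from 40.6% to 57.4% in the astrocyte and from 35.7% to 41.6% in the neuron knockout. Y-linked and Xist UMIs marked 4, 38, 14 and 12 mossy nuclei as male and 17, 0, 18 and 6 as female. The libraries thus differ in sex makeup, most of all the total knockout from the wild type. Sex and genotype cannot be told apart in these ratios. The 3 comparisons share the wild-type library of 23 nuclei. The neuron knockout had the fewest mossy UMIs, 333583 from 20 nuclei, so counting error is largest there. From a minimum of 100 UMIs, 25 and 19, 27 and 31, and 55 and 91 of 2968 genes passed 2-fold.

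Mettl24, a gene of a methyltransferase-like family, stood at 8.27, 59.6, 26.3 and 66.0 CPM (3, 30, 13 and 22 UMIs), so its log2 ratio to the wild type was 2.48 in the total knockout (1.16 to 5.21), 1.36 in the astrocyte knockout (-0.19 to 4.12) and 2.64 in the neuron knockout (1.26 to 5.38). In granule nuclei of the same libraries its ratios lay between -0.07 and 0.15, and in CA3 between 0.03 and 0.31. Among male nuclei only, 4 of them wild type, the Mettl24 ratio of the neuron knockout was 0.70. Fgf1, an acidic fibroblast growth factor gene, stood at 5.52, 27.8, 40.5 and 45.0 CPM, from 2 UMIs in the wild type, with ratios of 1.85 (0.21 to 5.51), 2.36 (0.83 to 6.02) and 2.54 (0.92 to 6.20). Granule nuclei gave 0.80 (0.18 to 1.51), -0.38 and -0.37 for Fgf1, and CA3 nuclei -0.59, -0.61 and -0.51. The giant sarcomere gene Ttn stood at 52.4, 205, 138 and 171 CPM, with ratios of 1.91 (1.25 to 2.75), 1.34 (0.64 to 2.21) and 1.66 (0.93 to 2.54) against at most 0.57 in granule and 0.39 in CA3 nuclei. For these genes the wild type was the lowest of the 4 libraries, which their selection as the highest ratios to it favours.

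Nr4a3 was above the wild type by 1.61 in the total knockout (0.96 to 2.42), 0.95 in the astrocyte knockout (0.25 to 1.79) and 1.96 in the neuron knockout (1.30 to 2.78). Granule nuclei gave 1.66, 0.56 and 1.04, and CA3 nuclei 0.32, -0.24 and 0.33. In the 97 nuclei the mossy ratios for the total and neuron knockouts were 1.43 and 1.72. Homer1 was 1.03 above the wild type in the neuron knockout (0.72 to 1.36), where granule nuclei gave -0.33 and CA3 nuclei -0.10. The T-type calcium channel gene Cacna1g stood at 13.8, 19.9, 44.5 and 66.0 CPM, from 5 UMIs in the wild type. Its ratio was 2.06 in the neuron knockout (0.82 to 4.01) and 1.49 in the astrocyte knockout (0.26 to 3.45), and its interval in the total knockout included 0. Cacna1g was above the wild type in the other classes too. Granule nuclei of the total, astrocyte and neuron knockout gave 0.87, 0.61 and 0.69, and CA3 nuclei 0.62, 0.48 and 0.44, each with an interval above 0.

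Piezo2 was below the wild type, with a ratio of -2.83 in the total knockout (-4.39 to -1.81) and -1.78 in the neuron knockout (-3.05 to -0.85), and -0.67 in the astrocyte knockout (-1.38 to 0.02). In granule nuclei the total, astrocyte and neuron knockout gave 1.11, -1.69 and -0.71, and in CA3 nuclei 0.02, -0.24 and 0.30. The stem cell factor gene Kitl stood at 52.4, 35.8, 14.2 and 74.9 CPM, low in the astrocyte knockout (-1.77, -3.38 to -0.57), where granule and CA3 nuclei were lower too (-0.55 and -1.04). The actin regulator gene Eps8 stood at 82.7, 35.8, 38.5 and 15.0 CPM and was below the wild type in all 3 knockouts (-1.18, -1.08 and -2.25).

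Of the other genes with the widest ratios, each listed under the library that selected it, Pfkm (1.76) was higher in the total knockout. Lrrc29 (-2.15), Slc9a4 (-2.06), Gm20275 (-1.84) and Mettl15 (-1.64) were lower there. Gm20275 was also lower in granule and CA3 nuclei of the total knockout (-0.77 and -0.79), while Pfkm was not higher in them (-0.15 and 0.01). In the astrocyte knockout 2310002F09Rik (1.78), Rarb (1.78), Mdga1 (1.65) and Tango6 (1.55) were higher, and Utrn (-2.21), Mir670hg (-1.64), Fam133b (-1.63) and Nfe2l1 (-1.55) were lower. For Pfkm, 2310002F09Rik, Rarb, Mdga1 and Tango6 the wild type was the lowest of the 4 libraries, from 6, 8, 5, 10 and 4 UMIs. Rarb, for example, was also at 1.59 in the total and 1.44 in the neuron knockout. Among male nuclei Slc9a4 and Rarb turned direction, to 0.22 and -0.18. Without the Sv2c nuclei Mir670hg and Nfe2l1 were at -0.76 and -0.53, and the intervals of Pfkm (1.08), Mettl15 (-1.22), Tango6 (1.33), Utrn (-1.98), Mir670hg and Nfe2l1 included 0. In the neuron knockout 2310002F09Rik was higher again (2.12), and Odf2l (-2.34), Mid2 (-2.05) and Dusp22 (-1.79) were lower. Use of strand in the counting was not given in the sources used here, so reads of Gm20275, an antisense gene, cannot be told from those of its partner.

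The proteoglycan gene Spock1 was lowest in the neuron knockout, at 411, 389, 322 and 86.9 CPM, from 149, 196, 159 and 29 UMIs. Its ratio there was -2.20 in mossy nuclei (-2.87 to -1.66), -2.44 in granule and -1.97 in CA3 nuclei, so all 3 classes were lower. Among the granule rule genes with enough UMIs, 3 of 4 were over 2-fold lower in the neuron knockout, beside 5.09% of all genes, and Prox1 and Glis3 were at 0 in the mossy sum of that library, which had the fewest Sv2c nuclei. Without the Sv2c nuclei Prox1 had 0, 3, 0 and 0 UMIs and Glis3 0, 7, 0 and 0, so the wild type was at 0 too, while the Spock1 ratio was -2.45.

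Lists were uneven in how many of their genes with at least 50 UMIs passed 2-fold, beside 4.05%, 4.26% and 7.92% of all genes in the total, astrocyte and neuron knockout. Of 11 neuromodulator receptor genes 1 was higher and 1 lower in the total, 1 and 1 in the astrocyte, and 2 and 2 in the neuron knockout. Of 39 transcription factor genes these were 4 and 1, 2 and 2, and 2 and 4. Of 3 activity-regulated genes 1 was higher in the total and 2 in the neuron knockout. Of 10 endocannabinoid genes with at least 50 UMIs, none was over 2-fold higher in any knockout, 1 was lower in the total and 1 in the neuron knockout, and the medians were -0.08, -0.19 and 0.03. None of the 7 kainate and delta receptor genes or the 11 GABA receptor genes passed 2-fold. Cnr1 gave ratios of 0.05 (-0.47 to 0.59), 0.44 (-0.05 to 0.97) and -0.25 (-0.89 to 0.36), each with an interval that included 0 and did not reach 2-fold. These intervals cover counting error only, so with 1 library per genotype they do not bound a difference between genotypes.

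**Figure D5:**
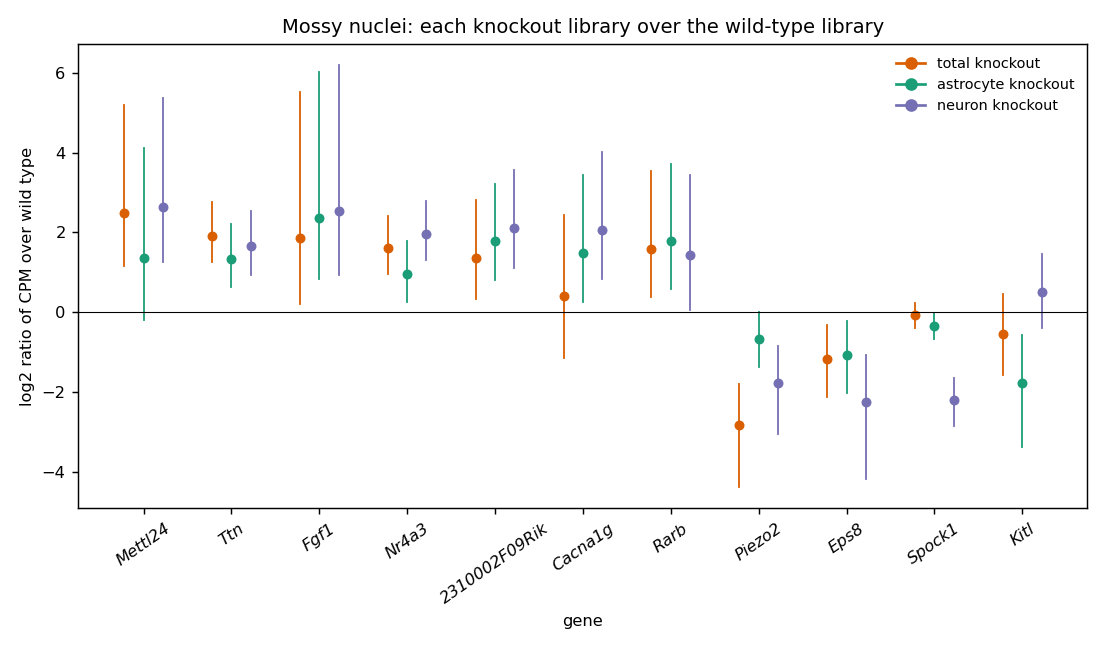
Log2 ratio of CPM in mossy nuclei of each knockout library over the wild-type library (y axis) for 11 named genes, with exact binomial 95% intervals as vertical lines that cover counting error only. Ttn and Nr4a3 lie above 0 in all 3 libraries, and Spock1 lies far below 0 in the neuron knockout, at -2.20.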

How the data were processed

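Nuclei of mouse hippocampus were profiled with the 10x multiome kit, and only the RNA part was used here. The authors deposited 1 table of UMI counts per library, a whole-number count per gene and barcode, made with Cell Ranger ARC 2.0.0 on mm10 per the submitters' processing notes. The labels name no further filter, and the barcodes held 400 to 5998 genes. The deposited counts were summed per library and class, and CPM is computed from these sums. Of 22989 gene symbols, 20211 were common to all libraries, and 19830 of those were in GENCODE M21 (GRCm38), the source of gene positions.

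Members and gene lists were chosen with earlier results of these data known. Mossy, granule and CA3 nuclei were picked by marker rules with at least 500 genes per barcode. Doublets were called with Scrublet in scanpy 1.11.5 at an assumed 0.8% per 1000 barcodes and kept, with their removal as an alternative. Class sums were tested with edgeR 4.0.16 (R 4.3.3), quasi-likelihood, library as block, TMM normalisation and Benjamini-Hochberg adjustment over all tested genes, and DESeq2 1.42.0 was an alternative. The nuclei of the 2 classes in a pair of sums come from the same library, which is what pairs them. P-values measure the spread between these 4 libraries, which differ in genotype and are not replicates of one. Because cells were assigned to classes by expression, and nuclei of one library share its depth and background RNA, the classes are not independent samples. Named genes passed both contrasts in the same direction in every library, with a mean of at least 30 CPM in mossy nuclei for higher genes or in both other classes for lower ones, and were ordered by the smaller fold, 15 higher and 10 lower. Between libraries they were the 5 highest and 5 lowest ratios per knockout among genes with at least 50 UMIs, a mean CPM at least that of other glutamatergic nuclei and an interval that excluded 0, sex-linked and mitochondrial genes left out. Other genes in the text come from the lists and were chosen after their values were seen. Other settings are given in the closing section. Some genes that the rule names are not reported here.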

Additional observations from a re-analysis of the deposited data

How the results depend on the processing

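Over all alternatives, 3266 recomputed class differences of single genes gave 3086 with the same direction and call, 130 that lost and 47 that gained the call, and 3 that reversed. With at least 4 markers required, Calb1 went to -9.11 and Glis3 to -3.12 against CA3, and Glis3 to -1.52 without the Sv2c nuclei. Of the 40 nuclei with at least 4 markers 0 held Calb1, so its -9.11 gives a direction and not a size. Of 150 recomputed library ratios 145 stayed within their interval and 2 reversed, both in male nuclei alone: Slc9a4 in the total knockout (0.22) and Rarb in the astrocyte knockout (-0.18). Mossy shares in the order wild type, total, astrocyte and neuron knockout were 0.0860%, 0.0323%, 0.150% and 0.0678% with at least 4 markers, and 0%, 0.0162%, 0.0198% and 0% at 3000 UMIs. At 8000 UMIs, a depth chosen after seeing the data like the Sv2c split, the first 2 were 0.129% and 0.236%. With at least 4 markers 982 genes were higher than in granule and 463 higher than in CA3 nuclei, and DESeq2 called 1222 and 475 lower. Leaving out 1 library gave 1292 to 1543 higher and 1203 to 1541 lower genes against granule and 507 to 673 and 493 to 692 against CA3, from fewer sums. Without the library as replicate block the counts were 1681 and 1939 against granule and 707 and 698 against CA3, so the block moved none by over 1.5 times. Genes past 2-fold, higher and lower, in the total, astrocyte and neuron knockout numbered 350 and 449, 342 and 504, and 499 and 693 from 20 UMIs, 25 and 19, 27 and 31, and 55 and 91 from 100 UMIs, and 432 and 475, 390 and 541, and 550 and 724 past 1.5-fold. In male nuclei they were 214 and 188, 246 and 272, and 255 and 279. Without the Sv2c nuclei 147 were higher in the total and 159 lower in the neuron knockout, and with doublets removed 159 were lower in the latter. Except for the changed minimum, fold or number of sums, the cause was not tested. Depth and 20 to 40 nuclei per library limit genes with few UMIs.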
